A study of Mus musculus with 6 samples.

Results

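The genes described here are those of the interleukin-2 (IL-2) axis: the cytokine gene Il2, the receptor chain genes Il2ra, Il2rb and Il2rg, the transcription factor genes Stat5a and Stat5b, and Cish and Socs2, genes known to be switched on by STAT5. They were taken by name, and each was read through every probe set that the platform annotation assigns to that gene alone. This gave 16 of 45037 probe sets, for 7 of the 8 genes and of 18193 genes in all. Il2 and Cish had 1 probe set each, Il2ra, Il2rb, Stat5a and Stat5b had 2 each and Socs2 had 6. Il2rg was not analysed here. Where a gene had several probe sets, the set with the highest mean over all arrays stood for it.

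Expression was measured on 6 Affymetrix mouse arrays, 3 for wild-type (WT) and 3 for SAP-deficient CD4 T cells. SAP is the adaptor protein encoded by Sh2d1a, which relays signals from SLAM-family receptors. The T cells of both genotypes carried the OT-II T cell receptor transgene, specific for an ovalbumin peptide, and came from spleen and lymph nodes. They were sorted as naive cells (CD4+CD44loCD62L+CD25-). The culture lasted 3.5 days and held the peptide and splenocytes, which had first been freed of T cells and exposed to mitomycin C. Added were IL-21 at 50 ng/ml and IL-6 at 100 ng/ml. Antibodies blocked TGF-β at 20 µg/ml, and IL-4, IL-12 and IFN-γ at 10 µg/ml each. Such conditions aim at cells like follicular helper T (Tfh) cells. The labels name no added IL-2 and no antibody against it. Age, sex and number of mice are not stated, nor whether each array had its own mouse or culture, so the p-values rest on a spread between arrays that may be technical.

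IL-2 is secreted by T cells after stimulation of the T cell receptor together with CD28, and acts on the same and on neighbouring T cells. Its receptor joins the α chain CD25 (Il2ra), the β chain (Il2rb) and the common γ chain (Il2rg), which the receptors for IL-4, IL-7, IL-9, IL-15 and IL-21 also use. Bound IL-2 activates the kinases JAK1 and JAK3, which phosphorylate STAT5A and STAT5B, and these enter the nucleus and switch on target genes. Among the targets, Cish and Socs2 encode SOCS-family proteins that dampen cytokine signalling, and Il2ra is itself a target. In CD4 T cells, IL-2 and STAT5 are known to raise Prdm1 and to restrain Bcl6, the factor that directs Tfh differentiation.

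The genes of NFAT, AP-1 and NF-κB proteins are taken up below because these factors are known to act on the Il2 promoter. The 250 bases before the Il2 start site are therefore shown, from RefSeq (GRCm38.p6, chr3:37125955-37126204, minus strand), with each GGAAA, the core letters bound by NFAT, in capitals on either strand:

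Il2: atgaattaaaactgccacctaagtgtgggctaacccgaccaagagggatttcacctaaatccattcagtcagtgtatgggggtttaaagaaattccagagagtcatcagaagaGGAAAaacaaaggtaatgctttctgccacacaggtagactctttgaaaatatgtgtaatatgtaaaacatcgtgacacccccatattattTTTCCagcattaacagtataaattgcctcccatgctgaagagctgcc

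The stretch held 2 such cores, starting 137 and 47 bases before the start site, the second on the other strand. Of 32851 RefSeq windows of the same length, 21.4% held 2 or more and 55.6% held at least 1. TGANTCA, a form of the AP-1 motif, was not among these letters, and 6.75% of all windows held it. TTCNNNGAA, the letters bound by STAT proteins, was found in none of the 8 windows of the 6 genes of this axis that the table holds (Il2, Il2ra, Il2rg, Stat5a, Stat5b and Cish), against 7.02% of all windows. All 3 motifs were searched on both strands. These matches are descriptions of letters in a short window and say nothing of binding.

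The targeted transcript was low on every SAP-deficient array. Sh2d1a was at 9.50, 8.52 and 9.39 on the WT arrays and at 5.47, 4.10 and 4.92 on the SAP-deficient ones (RMA log2 level). The latter lie under the median of all probe sets, so no fold is given. Each WT array was most like the SAP-deficient array of the same replicate number, although the numbers follow only the order of deposition. Over all probe sets the correlation was 0.996 to 0.998 for these pairs, and within a genotype it was 0.989 to 0.994. With genotype alone in the model, limma called 0 of 18193 genes (0%) at an adjusted p under 0.05, Sh2d1a included (adjusted p = 0.107), and 266 genes (1.46%) had an unadjusted p under 0.05. With the pairs as a block it called 1 gene, Sh2d1a (0.0055%). A failed call therefore does not show that a gene was alike in both genotypes, and intervals are given instead.

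Markers of the cells were read on the same arrays. The T cell genes Cd3e, Cd3d, Cd3g, Cd4, Cd5 and Cd2 had mean levels from 9.62 (Cd4) to 12.89 (Cd3d) in WT cells and their changes lay between -0.087 and 0.082. Foxp3, which defines regulatory T cells, another cell with high CD25, was at 4.92 ± 0.17 in WT and 5.02 ± 0.19 in SAP-deficient cells (SD, n = 3 each), under the median of 5.75 over all probe sets. Of the other 4 measured genes of that list, Ikzf2 had a change of 0.10 ± 0.21, Tnfrsf18 one of 0.15 ± 0.15, Il10 one of -0.12 ± 0.61 and Ctla4 one of -0.19 ± 0.65. In a mixed culture, fewer cells of a type and less RNA per cell cannot be told apart.

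Il2 was among the brightest probe sets of the arrays and showed nearly the same mean in both genotypes. It was at 13.82, 13.34 and 13.92 on WT arrays 1 to 3 and at 13.88, 13.32 and 13.89 on SAP-deficient arrays 1 to 3. The groups overlapped throughout, and the 2 low values were the arrays numbered 2. The change, SAP-deficient minus WT, was 0.0042 ± 0.19 (SE), with a 95% interval from -0.45 to 0.46, or 0.733-fold to 1.37-fold (limma adjusted p = 1.00). Between arrays of equal number it was 0.064, -0.018 and -0.034, while the means of the pairs were 13.85, 13.33 and 13.90. With the pairs as a block, the 95% interval of the change was -0.073 to 0.081 (limma), under a pairing that the labels do not give. The level lay above 99.9% of probe sets, with array maxima of 14.13 to 14.20, and how far differences are compressed so near the top of the scale was not tested.

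The receptor chain genes also had similar levels in both genotypes, by the probe sets that stand for them. Il2ra, the chain whose protein the sort selected against, was at 11.78, 11.65 and 11.79 on WT arrays and at 11.89, 11.66 and 11.80 on SAP-deficient arrays. All 6 values lay within 0.23, with the arrays numbered 2 lowest in both groups. The change was 0.041 (95% interval -0.15 to 0.23). Its other probe set was at 11.46, 11.34 and 11.29 in WT and at 11.61, 11.45 and 11.60 in SAP-deficient cells. There the groups overlapped by 1 array each way, 11.45 against 11.46, and every SAP-deficient array lay above the WT array of its number, by 0.15, 0.11 and 0.31. This set's change was 0.19 ± 0.081 (95% interval 0.002 to 0.37, unadjusted p = 0.0481, limma adjusted p over probe sets = 1.00). Whether the 2 probe sets of Il2ra differ in size of change was not tested. Il2rb, whose product is also a chain of the IL-15 receptor, was at 9.90, 9.94 and 9.98 in WT and at 10.04, 9.92 and 9.97 in SAP-deficient cells. Its values spanned 0.15, a range smaller than that of all but 4.19% of genes, and the change was 0.036 (95% interval -0.18 to 0.25). Its second probe set gave 0.034 (-0.21 to 0.28).

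**Figure D1:**
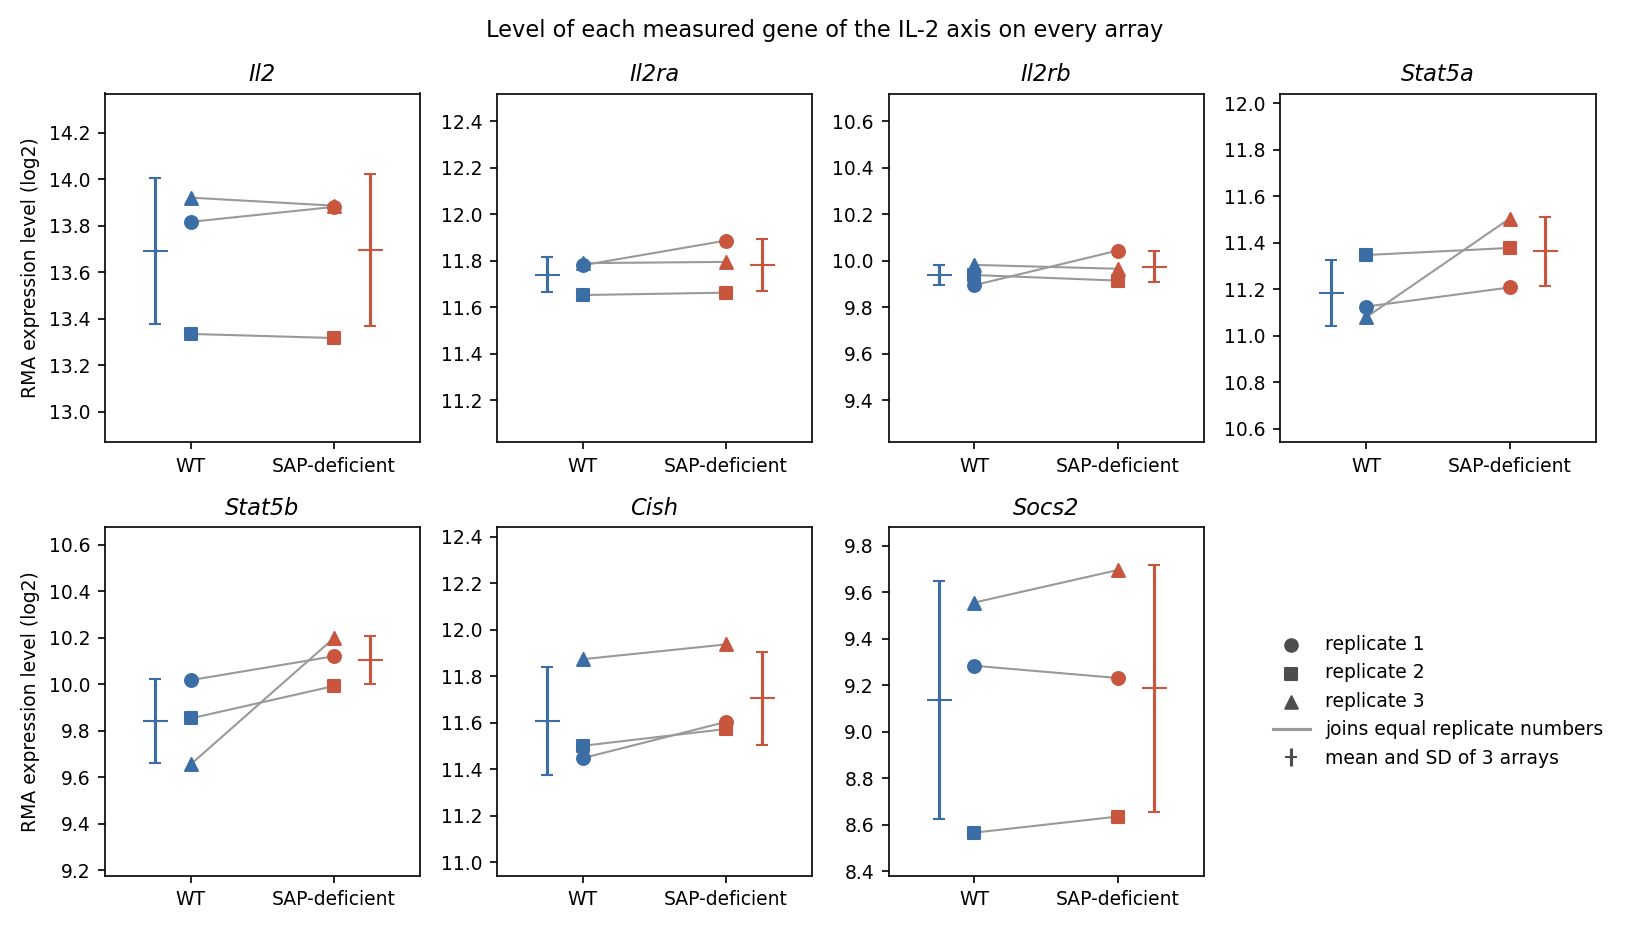
Level of each measured gene (RMA, log2, vertical axis, the same span of 1.5 in every panel) on the 3 WT and 3 SAP-deficient arrays; symbols mark replicate numbers, grey lines join equal numbers, and bars are the mean and SD of 3 arrays. Il2 and Socs2 were lowest on both arrays numbered 2, Cish was highest on both numbered 3, and Stat5a and Stat5b had their largest difference between the arrays numbered 3.

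The transcription factor genes had the largest changes among the genes of the axis, although neither passed the test. Stat5b was at 10.02, 9.85 and 9.66 in WT and at 10.12, 9.99 and 10.20 in SAP-deficient cells. The ranges overlapped only through the lowest SAP-deficient array and the highest WT array, and each SAP-deficient array lay above the WT array of its number. The change was 0.26 ± 0.12 (SE; 95% interval -0.026 to 0.55), a 1.20-fold difference (unadjusted p = 0.0689, limma adjusted p = 1.00). Stat5a was at 11.13, 11.35 and 11.08 in WT and at 11.21, 11.38 and 11.50 in SAP-deficient cells, where arrays 2 and 3 lay above every WT array and array 1 between them. Its change was 0.18 ± 0.11 (-0.074 to 0.43; unadjusted p = 0.139, adjusted p = 1.00). The second probe sets gave 0.13 ± 0.16 for Stat5b and 0.18 ± 0.14 for Stat5a.

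In the brighter probe sets, most of the Stat5a and Stat5b difference came from the arrays numbered 3. Between arrays of equal number, Stat5b differed by 0.10, 0.14 and 0.54 and Stat5a by 0.082, 0.030 and 0.42. The dimmer Stat5b probe set, by contrast, differed by 0.13, 0.17 and 0.099, and the dimmer Stat5a set by 0.21, 0.067 and 0.26. With the pairs as a block the unadjusted p was 0.0161 for Stat5b and 0.0420 for Stat5a (adjusted 0.691 and 0.740), and 1208 genes (6.64%) had an unadjusted p under 0.05. In the block without the arrays numbered 3, the changes were 0.12 ± 0.066 for Stat5b and 0.056 ± 0.059 for Stat5a. Other genes differed between the same 2 arrays. There the 8 measured cell-cycle genes had a median difference of 0.61 and the 5 MHC class II genes one of -0.52, against -0.15 and -0.039 between the arrays numbered 1 and -0.057 and -0.062 between those numbered 2. All 8 cell-cycle genes had a change above 0, all 5 MHC class II genes and all 6 measured B cell genes one below 0. Of all genes, 53.3% had a change above 0. The summed cell-cycle level (log2) ran from 13.14 to 13.72 over WT and from 13.53 to 13.66 over SAP-deficient arrays, and the summed MHC class II level from 11.35 to 11.69 and from 11.15 to 11.66. The summed B cell level ran from 8.53 to 9.04 and from 8.36 to 8.65. Their part in the Stat5a and Stat5b values was not tested. Stat5a and Stat5b are paralogs that lie next to each other in the RefSeq gene table, and whether their probes bind each other's transcripts was not tested.

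The STAT5 target genes Cish and Socs2 differed more between replicate numbers than between genotypes. Cish was at 11.45, 11.50 and 11.87 in WT and at 11.60, 11.57 and 11.94 in SAP-deficient cells. Both arrays numbered 3 lay above the other 4. The change was 0.097 (95% interval -0.23 to 0.43; limma adjusted p = 1.00), and each SAP-deficient array lay above the WT array of its number, by 0.16, 0.072 and 0.064. Socs2 was at 9.28, 8.57 and 9.56 in WT and at 9.23, 8.64 and 9.70 in SAP-deficient cells. Its values spanned 1.13, more than those of 96.0% of genes, with both arrays numbered 2 lowest and both numbered 3 highest. The change was 0.052 with a wide interval, -0.71 to 0.81, and differences between equal numbers were -0.053, 0.069 and 0.14. With the pairs as a block, the 95% interval of the Socs2 change was -0.10 to 0.20.

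The 6 Socs2 probe sets gave different changes. The second brightest was at -0.059 ± 0.33, with the arrays numbered 2 again lowest (7.36 and 7.31). The other 4 lay under the median level of all probe sets, where RMA values are close to background. Of these, the brightest was at 5.07, 5.03 and 4.80 in WT and at 5.22, 5.57 and 5.42 in SAP-deficient cells, the only set of the axis whose groups did not overlap. Its change was 0.44 ± 0.13 (unadjusted p = 0.0111, adjusted p = 1.00), and the other 3 dim sets were at 0.36, 0.077 and -0.12. In all, 1 of the 16 probe sets had groups that did not overlap, against 5.7% of all probe sets (2.56% in the same direction), and 2 had an unadjusted p under 0.05, against 1.64%. Within the pairs, 8 of the 16 were higher in SAP-deficient cells in all 3, against 14.1% of all probe sets, and with the pairs as a block 6 had an unadjusted p under 0.05, against 5.69%. These 16 share 7 genes and are not independent. None was called, as for all 45037 probe sets (0%).

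**Figure D2:**
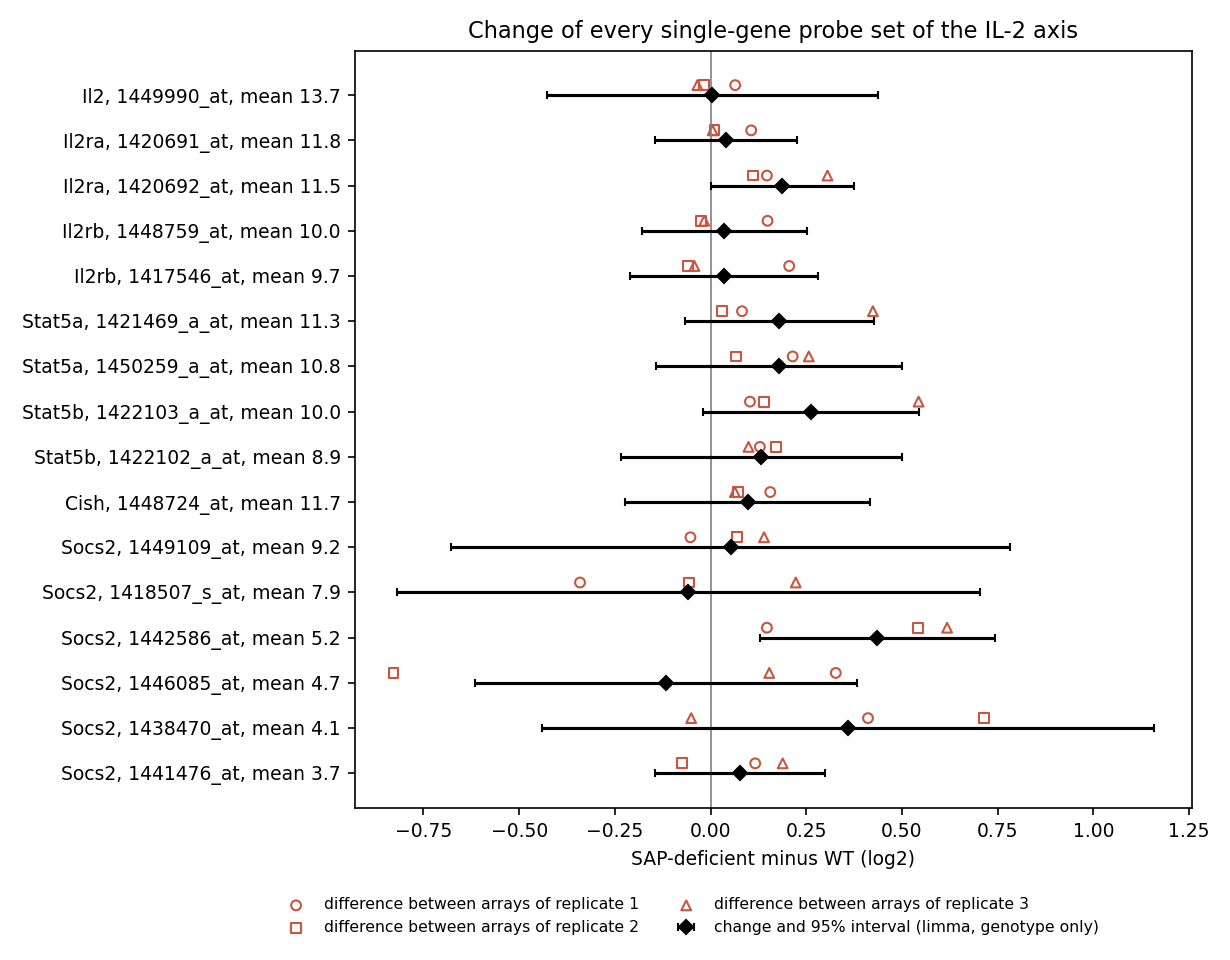
Change of each of the 16 probe sets (SAP-deficient minus WT, log2, horizontal axis), named with its gene and mean level; diamonds and bars are the change and its 95% interval in limma with genotype alone, and open symbols are differences between arrays of equal replicate number. Intervals are widest for 4 of the 6 Socs2 sets, and those of the third brightest Socs2 set and of the second Il2ra set lie above 0 before adjustment.

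Across the 7 measured genes the changes ran from 0.0042 (Il2) to 0.26 (Stat5b), with a median of 0.052 against 0.0078 for all genes. All 7 were above 0, as were 53.3% of all genes, except that Il2 turned to -0.0011 after a second quantile normalization. Stat5a and Stat5b kept this sign in all 18 alternatives, and the other 5 genes turned below 0 in at least 1. In all 3 pairs of equal number, 4 of the 7 were higher in SAP-deficient cells (Il2ra, Stat5a, Stat5b and Cish), against 15.6% of all genes, and none was lower in all 3, against 13.1%. None of the 7 had an unadjusted p under 0.05, against 1.46%, and none had groups that did not overlap, against 5.32%.

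The replicate number accounted for most of the spread of 4 genes and for little of that of the other 3. Of the variance over the 6 arrays, 99.3% lay between the pairs for Il2, 98.8% for Socs2, 91.7% for Cish and 85.6% for Il2ra. For Stat5b this share was 14.6% and for Stat5a 29.6%, while genotype held 54.0% and 36.0%. For Il2rb, which hardly varied, the shares were 19.2% and 13.7%. These shares are descriptions of 6 values each.

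The low Il2 level on the arrays numbered 2 went along with low levels of genes of known regulators of Il2 transcription. Of 12 measured regulators, 8 had both arrays numbered 2 below the other 4, against 17.6% of all genes. They were Nfatc1, Fos, Rel, Rela, Egr1, Ikzf1, Zeb1 and Crem. The list was not split into activators and repressors of Il2, and Zeb1 is a repressor gene. Nfatc1, which encodes a calcium-activated NFAT factor, was at 9.50 and 9.42 on those arrays and at 10.66 to 10.98 on the others. Egr1, an early gene of T cell receptor signalling, was at 10.98 and 10.92 there and at 11.59 to 11.79 elsewhere. Nfatc2, Jun and Satb1 were highest on both arrays numbered 2, as were 18.2% of all genes. Nfatc2 was at 9.30 and 9.39 on those arrays and at 8.33 to 8.73 on the others. Nfatc1, Fos, Rel, Egr1, Ikzf1, Zeb1 and Crem were also highest on both arrays numbered 3, 7 of 12 genes against 14.7% of all. Some marker genes of several cell types moved with this pattern. Of the T cell genes, 4 of 6 (Cd3e, Cd3d, Cd3g and Cd2) were lowest on both arrays numbered 2, and their summed level was 14.30 and 14.33 there and 14.50 to 14.62 on the other arrays. Of the 5 measured regulatory T cell genes, Ctla4, Tnfrsf18 and Il10 were lowest there, and the summed level was 12.34 and 12.39 against 13.18 to 13.30. Foxp3, under the median of all probe sets, was instead highest there, at 5.11 and 5.20 against 4.82 to 5.04. Ikzf2 was neither lowest nor highest there. Of the 8 macrophage and dendritic cell genes, only 3 (Lyz2, Itgam and Adgre1) were lowest there. The summed level of the 8 was 9.40 and 9.29 there and 9.53 to 9.73 elsewhere. The part of these markers in the pattern was not tested. Regulators named for their level on single arrays were chosen after their values were seen.

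**Figure D3:**
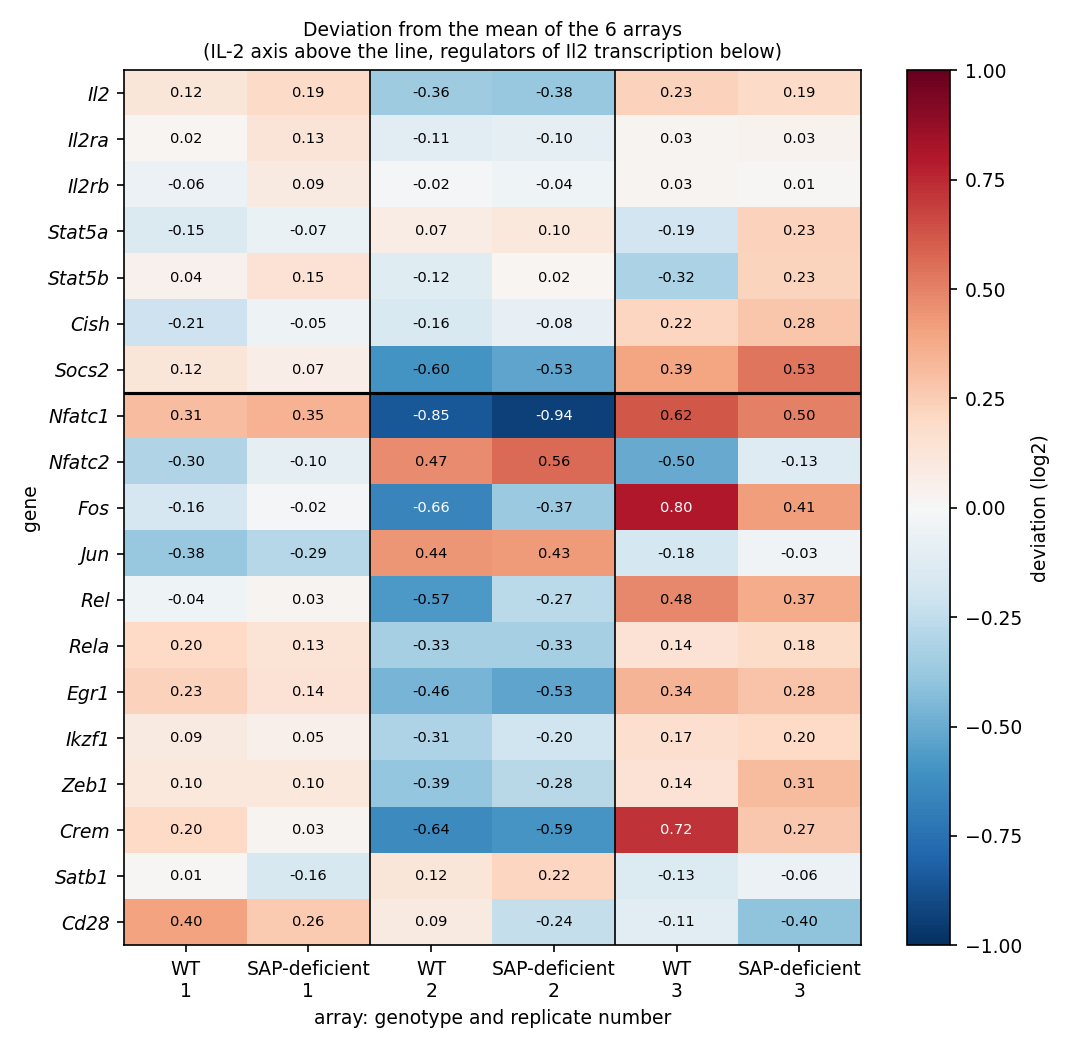
Deviation of each gene from its own mean over the 6 arrays (log2, colour and printed value), for the 7 genes of the axis above the line and 12 regulators of Il2 transcription below it; columns are arrays, ordered by replicate number. Neighbouring columns of equal number look alike in both genotypes, with Il2, Socs2, Nfatc1 and Egr1 below their mean on both arrays numbered 2.

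Between genotypes, none of the 12 regulators had an unadjusted p under 0.05, and their median change was 0.0098. Without single arrays this median ran from -0.17 (without WT array 2) to 0.15 (without SAP-deficient array 2), so it has no settled sign. The largest were Nfatc2 at 0.22 ± 0.29 and the repressor gene Zeb1 at 0.095 ± 0.20. On the lower side stood Cd28, the costimulatory receptor gene, at -0.25 ± 0.19, and Crem, encoding a cAMP-responsive factor, at -0.19 ± 0.36. Cd28 was lower within every pair, by -0.15, -0.33 and -0.29 (unadjusted p = 6.88e-04 with the pairs as a block, adjusted 0.408). Nfatc2 was higher within every pair, by 0.20, 0.090 and 0.38 (unadjusted p = 0.0179 in the limma block fit, adjusted 0.692). These 2 regulators, 1 on each side, were the only ones under 0.05 in the block, against 6.64% of all genes.

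The genes whose pattern over the 6 arrays was most like that of Il2, Il2ra, Cish and Socs2, the 4 genes whose spread lay mostly between pairs, were searched for. Among 1749 other genes at or above the median level and with an SD of at least 0.3, the Pearson correlation with Il2 was highest for Nrm (0.997), Nfatc1 (0.996) and Map3k8 (0.996), which encodes a kinase upstream of ERK. With Il2ra it was highest for the lymphotoxin gene Lta (0.985), the metallothionein gene Mt2 (0.982) and the homeobox gene Hhex (0.978). Cdk5r1, Fam83g and Fam110a were closest to Cish (each 0.995). Samd4 (0.999), Fbxo17 (0.997) and Zfp36l1 (0.995) were closest to Socs2; Samd4 and Zfp36l1 encode RNA-binding proteins. Since the 6 arrays form 3 alike pairs, each value describes little more than 3 levels.

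Other genes known to be induced by STAT5 were read from a list of 23, all of which were measured and 3 of which belong to the axis. None was called in either direction; 17 had a change above 0 and the median was 0.059, against 0.0078 for all genes. The gene of lymphotoxin β, Ltb, was at 11.32, 11.44 and 11.40 in WT and at 11.79, 11.51 and 11.76 in SAP-deficient cells. These groups did not overlap, as in no other gene of the list, against 2.38% of all genes in this direction. Its change was 0.30 ± 0.092 (unadjusted p = 0.0137, limma adjusted p = 1.00) and the only one of the 23 with an unadjusted p under 0.05, against 0.605% of all genes in this direction. Prdm1, encoding the Bcl6 antagonist Blimp-1, was at 6.31, 5.73 and 6.26 in WT and at 6.61, 6.23 and 6.46 in SAP-deficient cells. Its change was 0.33 ± 0.18 and it was higher within every pair, by 0.30, 0.50 and 0.20. At the other end of the list, Mcl1, encoding a survival protein, was at -0.049 ± 0.075 and the kinase gene Pim1 at -0.046 ± 0.11. With the pairs as a block 4 genes of the list had an unadjusted p under 0.05, all with a change above 0 (Ltb, Prdm1, Tnfrsf18 and Id2), against 6.64% of all genes. None of these 4 was called (adjusted p from 0.637 to 0.685).

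**Figure D4:**
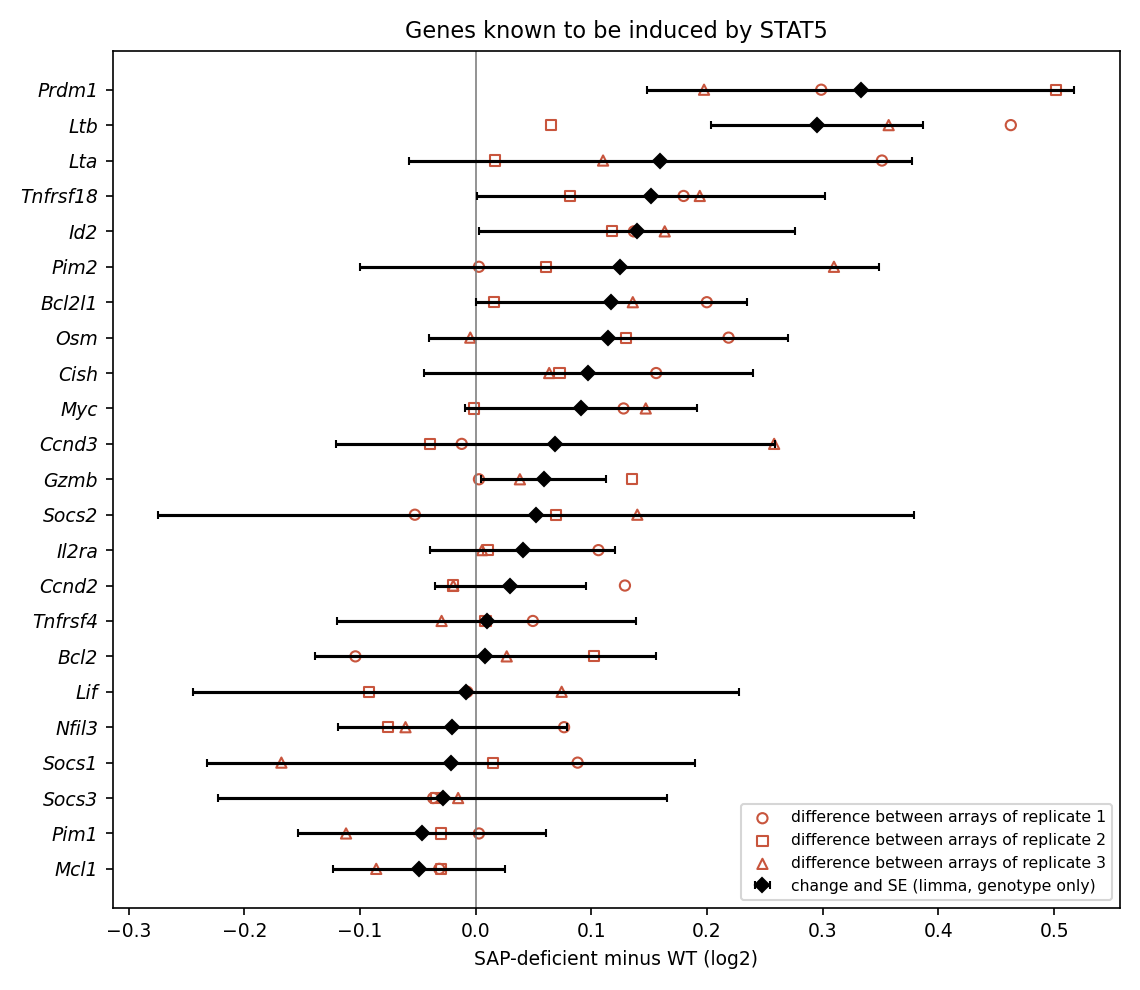
Change of 23 genes known to be induced by STAT5 (SAP-deficient minus WT, log2, horizontal axis); diamonds and bars are the change and its SE in limma with genotype alone, and open symbols are differences between arrays of equal replicate number. Changes ran from -0.049 (Mcl1) to 0.33 (Prdm1), and the bars of Bcl2l1, Prdm1, Gzmb, Tnfrsf18, Id2 and Ltb lie wholly above or below 0.

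By replicate number, 11 of these 23 genes had both arrays numbered 2 lowest, against 17.6% of all genes, among them Myc, Lta, Tnfrsf18 and Socs1. Both were highest for 4, near the 18.2% of all genes.

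Genes known to be lowered by IL-2 and STAT5 had a median change of -0.067, and 5 of 8 measured genes lay below 0. The cytokine gene Il17a was at -0.27 ± 0.35 and Klf2, a factor of quiescent T cells, at -0.21 ± 0.24. Bcl6 was at -0.069 ± 0.24 and had no common sign within the pairs (-0.30, 0.015 and 0.076). The highest were the IL-6 receptor genes Il6ra (0.12 ± 0.13) and Il6st (0.069 ± 0.26). None had an unadjusted p under 0.05, and without single arrays the median ran from -0.11 (without WT array 1) to 0.016 (without SAP-deficient array 2). Il17a was lower within every pair, by -0.58, -0.12 and -0.10, and so was Klf2, by -0.29, -0.10 and -0.26. With the pairs as a block their unadjusted p was 0.0179 and 0.0362 (limma adjusted p = 0.692 and 0.740), the only 2 of the 8 under 0.05, against 6.64% of all genes.

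Most genes that act directly below the receptor had a change above 0, but the largest change in size lay below 0. Of 11 measured, 10 had a change above 0, with a median of 0.065, but none was called or had an unadjusted p under 0.05, and without single arrays the median ran from -0.022 (without WT array 3) to 0.12. The phosphoinositide 3-kinase genes Pik3cd and Pik3r1 had the largest, 0.18 ± 0.46 and 0.16 ± 0.25, and both differed most between the arrays numbered 3 (0.64 and 0.41). The receptor-bound kinase genes Jak1 and Jak3 were at 0.15 ± 0.14 and 0.036 ± 0.29. The only change below 0 was that of Syk, a kinase that B cells express strongly, at -0.26 ± 0.17. Its mean level of 5.71 lay under the median of all probe sets. All 6 B cell genes also had a change below 0, as did 8493 of 18193 genes in all. Of the B cell genes, Ms4a1 and Pax5 lay under that median too. The part of B cell RNA in the Syk change was not tested. In the limma fit with the pairs as a block, 1 gene on each side had an unadjusted p under 0.05, against 6.64% of all genes. These were Jak1 (0.0381, above 0) and Syk (0.0220, below 0).

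Cytokines related to IL-2 and the receptor genes that share its chains made up a list of 10, all measured, with a median change of 0.049. Without single arrays it ran from -0.033 (without SAP-deficient array 3) to 0.049, and was also below 0 without WT array 2 or 3. Il4 had the highest change, 0.40 ± 0.57, and differed by 0.52, 0.23 and 0.44 within the pairs (adjusted p = 0.257 with the pairs as a block). The IL-9 gene Il9, whose mean level of 5.11 lay under the median of all probe sets, was at 0.25 ± 0.18. On the lower side Il21, the Tfh cytokine that also signals through the common γ chain, was at -0.18 ± 0.25. In the block, 1 gene above 0 (Il4) and 2 below 0 (Il21 and Il7) had an unadjusted p under 0.05, against 6.64% of all genes. Il7 was at 3.52, 3.76 and 3.52 in WT and at 3.11, 3.36 and 3.39 in SAP-deficient cells, with groups that did not overlap, as in 2.94% of all genes in this direction. Its change was -0.31 ± 0.11 (unadjusted p = 0.0235, limma adjusted p = 1.00). Of all genes, 0.857% had an unadjusted p under 0.05 in this direction. The Il7 levels lay above only 12.6% of probe sets, where RMA values are close to background.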

How the data were processed

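The authors deposited 45101 probe sets as log2 levels, 1 column per array. RMA was run in Affymetrix Expression Console, per the submitters' processing notes. It corrects background, equalises array distributions and summarises probes, and understates differences where probe sets are dim. For the version, genome build and annotation: not given in the sources used here. Labelling used 500 ng of RNA per array. Control probe sets (64) were left out. The platform annotation gave 1 gene for 34945 of 45037 probe sets, several for 932 and none for 9160. Among the 932 was 1 that holds a gene of the axis, and it was left out. Symbols of 34741 probe sets were updated through RefSeq.

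Genotypes were compared with limma 3.58.1 (R 4.3.3; lmFit on genotype, eBayes with an intensity trend), over all genes by their highest-mean probe set and over all probe sets, with Benjamini-Hochberg adjustment and a threshold of 0.05. Both this fit and the one with pairs as a block were run on simulated data, whose spread came from the block fit. A minimum share of recovered calls was required only of the block fit, at the largest added change. The calls of the fit on genotype alone were not checked in this way. Pairs of arrays were matched on odd-numbered probe sets outside all lists. On even-numbered ones, deviations from genotype means correlated at 0.54 to 0.73 within pairs and at most at -0.11 otherwise; deviations from a mean of 3 sum to 0, which pushes the latter below 0. This pairing comes from the data, not the labels. Genes of the axis, lists, tests and alternatives were chosen with earlier results of these data known. Named from each list were genes with an unadjusted p under 0.05 and the 2 largest changes on each side, besides those stated in the text. The precision is limited by the number of arrays. Alternatives were other eBayes settings, a filter on dim probe sets, 2 rescalings, array weights, other probe sets for a gene, leaving out arrays or pairs, and the pair block.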

Additional observations from a re-analysis of the deposited data

How the results depend on the processing

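Over 18 alternatives no gene of the IL-2 axis was called (lowest adjusted p 0.633). Stat5a (0.056 to 0.26) and Stat5b (0.12 to 0.35) kept their sign in all of them. Il2 turned to -0.0011 after a second quantile normalization and to -0.026 in the replicate block without pair 1, where Il2rb turned to -0.020. Without single arrays Il2 ran from -0.17 (without WT replicate 2) to 0.19, with -0.089 and -0.092 without SAP-deficient replicates 1 and 3. Il2ra ran from -0.012 (without SAP-deficient replicate 1) to 0.10, with -0.0036 without WT replicate 2. Cish ran from -0.019 (without SAP-deficient replicate 3) to 0.23, and Socs2 from -0.23 (without WT replicate 2) to 0.33, with -0.20 without SAP-deficient replicate 3. Leaving out 1 array unbalances the pairs. All genes called numbered 0 in the fits without a block and 1 in the replicate block (Sh2d1a). They numbered 2, 1 and 93 in the block without pair 1, 2 or 3. No gene of the axis was among them. The cause of the count of 93 was not tested. Of the 5 pathway lists, only the STAT5-induced genes kept the sign of their median in every alternative (0.032 to 0.10). The other 4 crossed 0 in at least 1: receptor-proximal genes ran from -0.022 to 0.12, genes lowered by IL-2 and STAT5 from -0.11 to 0.016, regulators of Il2 from -0.17 to 0.15, and the other cytokines and receptors from -0.033 to 0.11. The median change of all genes was 0.0078, and -0.0011 and 0.017 after the 2 rescalings. With 3 arrays a genotype, the fit on genotype alone gave Il2 an interval of -0.45 to 0.46. This interval is not a limit of detection, since that fit did not call even Sh2d1a (limma adjusted p = 0.107).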
